A study of Homo sapiens with 60 samples.

Results

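Basement membrane integrins and the chains of laminin-332 were followed across 3 human breast cell lines and 4 treatments. The set was given as 9 gene symbols, ITGA2, ITGA3, ITGA6, ITGB1, ITGB4, ITGB6, ITGB8, LAMA3 and LAMB3, and every probe set carrying one of these symbols alone was taken. Of the 9 symbols 7 had a value, through 23 of the 41091 probe sets with a single symbol, and 7 is also their number among the 19775 genes measured. The 4 probe sets of ITGB6 also carry a second symbol and were not used, and no probe set matched LAMA3, so laminin-332 is represented by LAMB3 alone.

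RNA was hybridised to Affymetrix expression arrays, 60 in all, 5 from independent experiments in each of 12 groups. SKBR3 is a mammary adenocarcinoma line that overexpresses the receptor HER-2, C5.2 was made from HB4a by transfection of a HER-2 cDNA, and HB4a is a line of normal breast epithelium. Each line received doxorubicin at 30 nM, rapamycin at 20 nM, both drugs at these doses, or the DMSO vehicle. Doxorubicin poisons topoisomerase II, and rapamycin blocks the growth kinase mTOR. The labels give no treatment time and no processing batch, so a batch and the line cannot be told apart, and C5.2 is a single derivative of HB4a. HB4a and C5.2 were grown with insulin and hydrocortisone and SKBR3 was not, so medium and line cannot be told apart in the comparisons with SKBR3.

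Integrins are receptors made of an alpha and a beta chain that tie cells to the matrix. ITGA6 pairs with ITGB4 in hemidesmosomes, the rivets that fasten epithelial cells to laminin-332, while ITGA3 pairs with ITGB1 as another laminin-332 receptor and ITGA2 with ITGB1 as a receptor for collagen and laminin. Laminin-332, which holds the LAMA3 and LAMB3 chains, is laid down by epithelial cells of skin, breast and other glands. ITGB6 and ITGB8 pair with ITGAV and release active TGF-beta from its latent complex.

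Values are log2 probe set summaries, and each gene is read from its brightest probe set unless stated otherwise. A log2 difference of 1 is a doubling, and values of different genes were not compared with each other, because probe sets differ in their response. Array medians lay between 1.41 and 1.71 and were taken as background, and a group with at least 2 of its 5 arrays at or under their medians counts as being at background. A difference from such a group is given as at least the distance to those medians. Each difference carries its limma standard error (n = 5 in each group). The words rose and fell are kept for differences whose 2-sided adjusted p (Benjamini-Hochberg, all genes tested) was under 0.05. A gene was tested where at least 5 arrays of a fit passed log2 5. Array values are listed in the order of experiments 1, 2, 3, 4 and 6.

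ERBB2, which encodes HER-2, averaged 11.48 in SKBR3, 12.06 in C5.2 and 6.67 in HB4a in vehicle (n = 5 each), in the order high, high and low that the line labels give. Luminal keratins KRT8 and KRT18 were above background in all 3 lines in vehicle, but the luminal cadherin CDH1 was at background on 4 of 5 SKBR3 arrays. Of 4 measured basal markers 3 were at background in SKBR3, 1 in C5.2 and 1 in HB4a, and KRT14 was at background in every line. SKBR3 vehicle array 3 stood apart, with 7 of 11 basal and mesenchymal markers above the other 4 arrays, among them FN1 at 8.83 against 3.91 to 4.62 on the others. The LAMB3 differences between lines are given with and without that array, and other differences from SKBR3 vehicle include it unless stated otherwise.

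Promoter sequences are shown for LAMB3, whose level separated the lines most, and for ITGB1, which was highest in the line where LAMB3 was intermediate. They are the 250 bases before a start site in RefSeq (GRCh38.p14), read 5′ to 3′ on the minus strand, at chr1:209652426-209652675 for the upstream and chr1:209651375-209651624 for the downstream LAMB3 start, and at chr10:32958231-32958480 for ITGB1. Capitals mark the AP-1 motif TGANTCA, searched on both strands.
LAMB3 upstream start: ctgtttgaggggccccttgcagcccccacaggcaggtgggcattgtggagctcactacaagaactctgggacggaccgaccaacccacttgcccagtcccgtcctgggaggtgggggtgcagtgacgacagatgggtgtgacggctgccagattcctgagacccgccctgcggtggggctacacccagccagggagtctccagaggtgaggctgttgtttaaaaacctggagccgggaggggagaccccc
LAMB3 downstream start: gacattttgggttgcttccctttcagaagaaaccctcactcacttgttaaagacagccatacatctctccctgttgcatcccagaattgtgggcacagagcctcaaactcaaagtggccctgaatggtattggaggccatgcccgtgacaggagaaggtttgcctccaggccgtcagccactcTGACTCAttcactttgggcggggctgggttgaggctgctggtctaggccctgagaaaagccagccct
ITGB1: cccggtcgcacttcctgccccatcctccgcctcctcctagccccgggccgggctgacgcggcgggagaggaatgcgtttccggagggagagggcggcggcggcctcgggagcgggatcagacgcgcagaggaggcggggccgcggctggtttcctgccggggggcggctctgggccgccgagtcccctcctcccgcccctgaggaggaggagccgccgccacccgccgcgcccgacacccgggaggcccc
The motif occurred 1 time before the downstream LAMB3 start and not in the other 2 windows shown, and 6.57% of the 35116 promoter windows of this length hold it. The GC box GGGCGG, on either strand and with no base shared with the AP-1 motif here, occurred 1 time in each LAMB3 window shown and 3 times in the ITGB1 window shown, and 42.6% of all windows hold it. Not shown are a further LAMB3 window at chr1:209652330-209652579, with 1 GC box, and a further ITGB1 window at chr10:32935559-32935808, with 0. Neither held the AP-1 motif. A match describes letters only. LAMB3 has a single probe set, so transcripts from its starts were not told apart.

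In vehicle, LAMB3, the beta chain of laminin-332, was lowest in SKBR3, intermediate in C5.2 and highest in HB4a. The SKBR3 arrays read 2.44, 3.14, 5.25, 2.88 and 2.65, the C5.2 arrays 5.78, 6.15, 6.46, 6.64 and 6.93, and the HB4a arrays 8.09, 8.51, 7.97, 8.07 and 8.03. The 3 lines did not overlap, and the nearest SKBR3 array was number 3, the one that stood apart. C5.2 minus HB4a was -1.74 ± 0.17 (adjusted p = 8.19e-11), a 3.35-fold lower level. SKBR3 minus HB4a was -4.86 ± 0.29 (adjusted p = 4.79e-18, 29.1-fold lower) and SKBR3 minus C5.2 was -3.12 ± 0.29 (adjusted p = 3.95e-12, 8.70-fold lower). Without SKBR3 vehicle array 3 these became -5.36 and -3.62. The summed level of the 4 basal markers ran in the same order, from 5.35 to 6.15 in SKBR3, 7.40 to 8.43 in C5.2 and 10.43 to 10.79 in HB4a (log2), and its part in the LAMB3 and ITGB4 differences was not tested. In RNA from whole cultures, fewer cells of a type and less RNA per cell cannot be told apart.

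ITGB4, the hemidesmosome beta chain, was low in both HER-2 lines. It read 2.92, 3.72, 3.78, 3.34 and 3.44 in SKBR3, 2.67, 3.06, 2.79, 3.25 and 3.89 in C5.2, and 5.07, 5.47, 5.33, 5.41 and 5.39 in HB4a. Every HB4a array lay above every array of the other lines, while SKBR3 and C5.2 overlapped. The difference was -2.20 ± 0.20 for C5.2 minus HB4a (adjusted p = 4.70e-12, 4.61-fold) and -1.89 ± 0.17 for SKBR3 minus HB4a (adjusted p = 2.02e-12, 3.72-fold). SKBR3 minus C5.2 was 0.31 and stayed under the filter. The dimmer ITGB4 probe sets were under the filter and untested. In vehicle the next brightest read 2.00 to 2.38 in SKBR3, 1.83 to 2.54 in C5.2 and 2.35 to 2.90 in HB4a. These ranges overlapped, with means of 2.24, 2.13 and 2.70. The probe set after it, at background in C5.2, read 1.22 to 1.73, 1.49 to 1.92 and 1.77 to 2.53. There SKBR3 lay below HB4a and C5.2 overlapped it.

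ITGA6, the alpha chain of the hemidesmosome pair, was at background in SKBR3 and above it in C5.2 and HB4a. SKBR3 arrays read 0.19, 0.13, 0.03, 0.14 and 0.02, all 5 under their medians, against 3.72, 3.30, 3.37, 3.41 and 3.31 in C5.2 and 4.07, 3.56, 3.28, 3.14 and 3.58 in HB4a. No array of SKBR3 came near those of the other lines, and C5.2 and HB4a overlapped. ITGA6 passed the filter in no comparison, so no test is given; it was at least 2.03 lower in SKBR3 than in HB4a and at least 1.92 lower than in C5.2, and C5.2 minus HB4a was -0.10. Its dimmer probe set was at background on all 20 SKBR3 arrays and on 0 of 20 C5.2 and 1 of 20 HB4a arrays. In SKBR3, ITGB4 was above background and its partner ITGA6 was not.

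ITGA3, the alpha chain of a laminin-332 receptor, divided the lines in the same place as ITGA6. Values were 2.67, 3.10, 3.43, 2.92 and 3.12 in SKBR3, 4.69, 5.16, 5.58, 5.56 and 5.63 in C5.2, and 4.96, 5.48, 4.87, 5.19 and 5.16 in HB4a. SKBR3 lay apart from both other lines, which overlapped. SKBR3 minus HB4a was -2.09 ± 0.15 (adjusted p = 3.75e-15, 4.24-fold lower) and SKBR3 minus C5.2 was -2.28 ± 0.17 (adjusted p = 1.13e-14, 4.84-fold lower). C5.2 minus HB4a was 0.19 ± 0.17 (adjusted p = 0.359).

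ITGB1, the beta chain shared by the collagen and laminin receptors, was highest in C5.2. It read 8.35, 7.46, 7.84, 8.11 and 7.51 in SKBR3, 9.47, 8.84, 9.26, 9.02 and 9.32 in C5.2, and 7.90, 6.75, 7.38, 6.79 and 7.74 in HB4a. The C5.2 arrays lay above all others, and SKBR3 and HB4a overlapped. C5.2 exceeded HB4a by 1.87 ± 0.31 (adjusted p = 3.37e-06, 3.66-fold), and SKBR3 minus C5.2 was -1.33 ± 0.22 (adjusted p = 1.14e-06, 2.51-fold lower). The summed level of 7 mesenchymal markers was also highest in C5.2 in vehicle, at 5.53 to 8.97 in SKBR3, 12.31 to 12.83 in C5.2 and 11.58 to 11.81 in HB4a (log2). The upper SKBR3 end lay on array 3, where FN1 alone read 8.83, and treated SKBR3 arrays lay between 5.48 and 5.83. The part of these markers in the ITGB1 differences was not tested. SKBR3 minus HB4a was 0.54 ± 0.30 (adjusted p = 0.101), and was called with array centring (adjusted p = 0.0335) and without a set of arrays picked from earlier results of these data (adjusted p = 0.0264). These were the SKBR3 and HB4a arrays numbered 1, the C5.2 arrays numbered 2 and HB4a rapamycin array 4, and SKBR3 vehicle array 3 is not among them. The next brightest pair of ITGB1 probe sets also put C5.2 above HB4a, by 2.09 ± 0.51 (adjusted p = 0.000865 over all probe sets tested) and 1.61 ± 0.57 (adjusted p = 0.0189), where 48.5% of probe sets tested were called, and the other 4 were at background on all 60 arrays.

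ITGA2, a collagen receptor chain, overlapped between the lines, and ITGB8, a chain of a TGF-beta activator, lay at background. ITGA2 read 4.41, 3.30, 4.13, 4.35 and 3.66 in SKBR3, 3.74, 3.58, 3.57, 3.50 and 4.45 in C5.2, and 4.97, 4.39, 3.70, 3.37 and 4.26 in HB4a. All 3 lines overlapped, with C5.2 minus HB4a at -0.37 ± 0.42 (adjusted p = 0.483), SKBR3 minus HB4a at -0.17 ± 0.40 (adjusted p = 0.713) and SKBR3 minus C5.2 at 0.20, untested. The dimmer ITGA2 probe set, under the filter and untested, read 1.83 to 2.29 in SKBR3, 1.84 to 1.98 in C5.2 and 2.28 to 2.86 in HB4a in vehicle, with C5.2 wholly below HB4a. ITGB8 was at background on all 20 SKBR3 arrays, 16 of 20 C5.2 arrays and all 20 HB4a arrays, from 0.15 to 2.03 over the 3 lines. In vehicle it read 0.15 to 0.61 in SKBR3, 1.43 to 1.73 in C5.2 and 0.75 to 1.20 in HB4a. These ranges do not overlap, but 5, 4 and 5 of the 5 arrays were at background, so no difference is given.

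Of the 5 members tested between C5.2 and HB4a, 1 was higher and 2 lower in C5.2, where 49.2% of all 6962 tested genes were called, 29.3% higher and 19.9% lower. SKBR3 had 3 of 5 tested members lower than HB4a, where 77.3% of genes were called and 39.7% were lower. It had 3 of 3 lower than C5.2, where 78.8% were called and 42.6% were lower. With so few members these counts set nothing apart from other genes, and a member reached a test through the line in which it was high. The median difference over tested members was -0.37 for C5.2 minus HB4a (0.10 over all genes), -1.89 for SKBR3 minus HB4a (-0.02 over all genes) and -2.28 for SKBR3 minus C5.2 (-0.09 over all genes). These medians carry the same limit from the filter and are no evidence on the set.

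**Figure D1:**
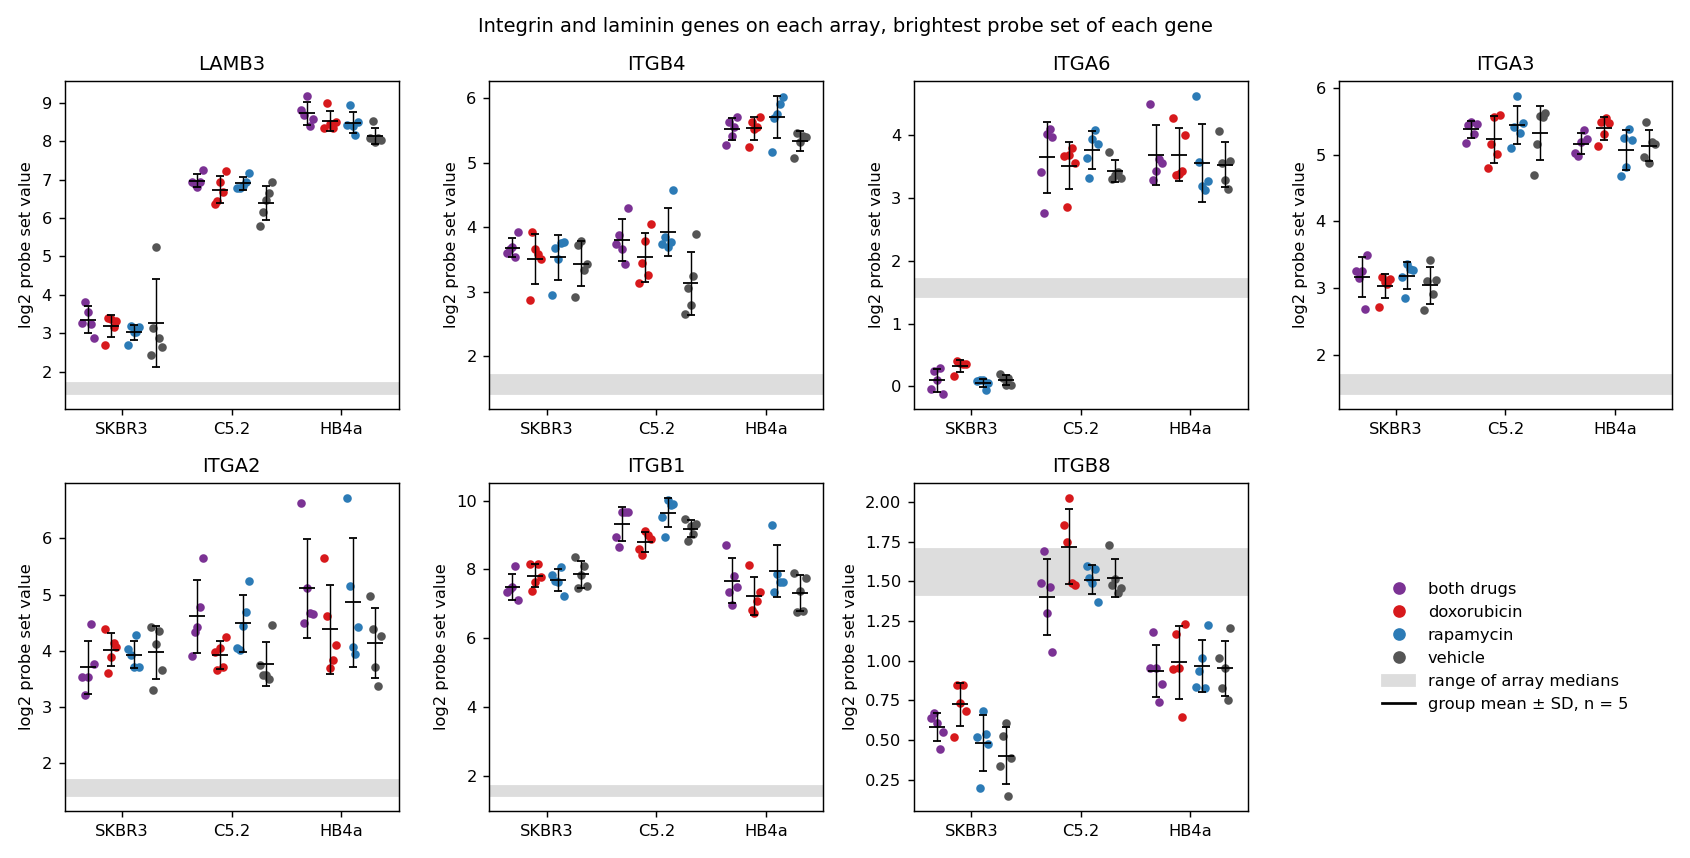
Log2 probe set value (y axis) of 7 genes on each of 60 arrays, grouped by line along the x axis and coloured by treatment, with group means and SD as black bars (n = 5) and the range of array medians, 1.41 to 1.71, in grey. LAMB3 steps up over SKBR3, C5.2 and HB4a, ITGB4 is high in HB4a alone, ITGA6 and ITGA3 are low in SKBR3, ITGB1 is highest in C5.2, and ITGB8 lies at or near the grey band or below it.

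**Figure D2:**
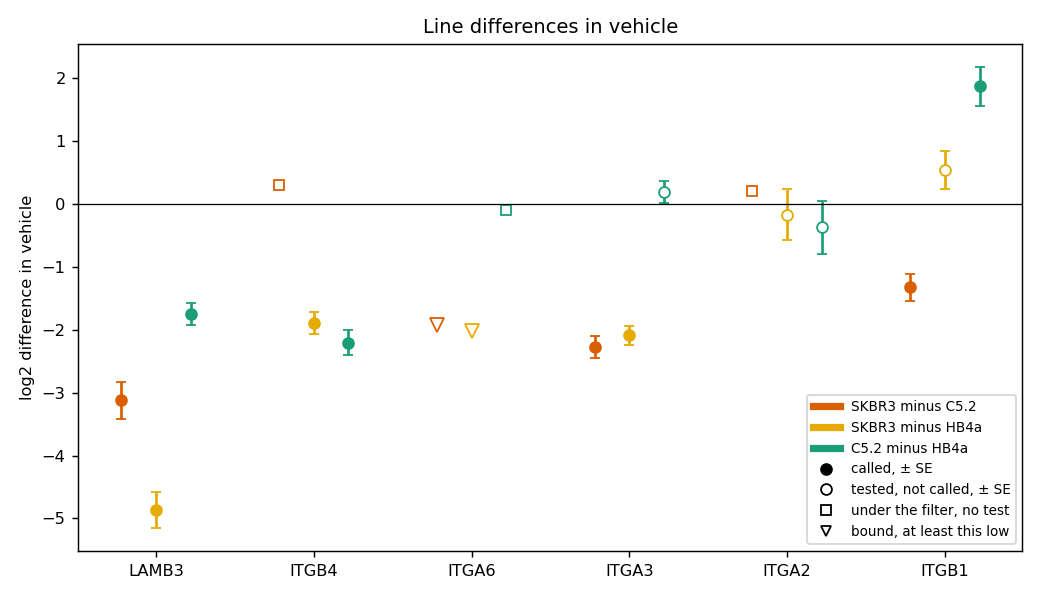
Log2 difference between lines in vehicle (y axis) for 6 genes (x axis), with the SE where tested, filled where called, squares for genes under the filter and triangles for bounds. LAMB3 differs in all 3 comparisons, while ITGA2 lies near 0 in all of them.

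**Figure D3:**
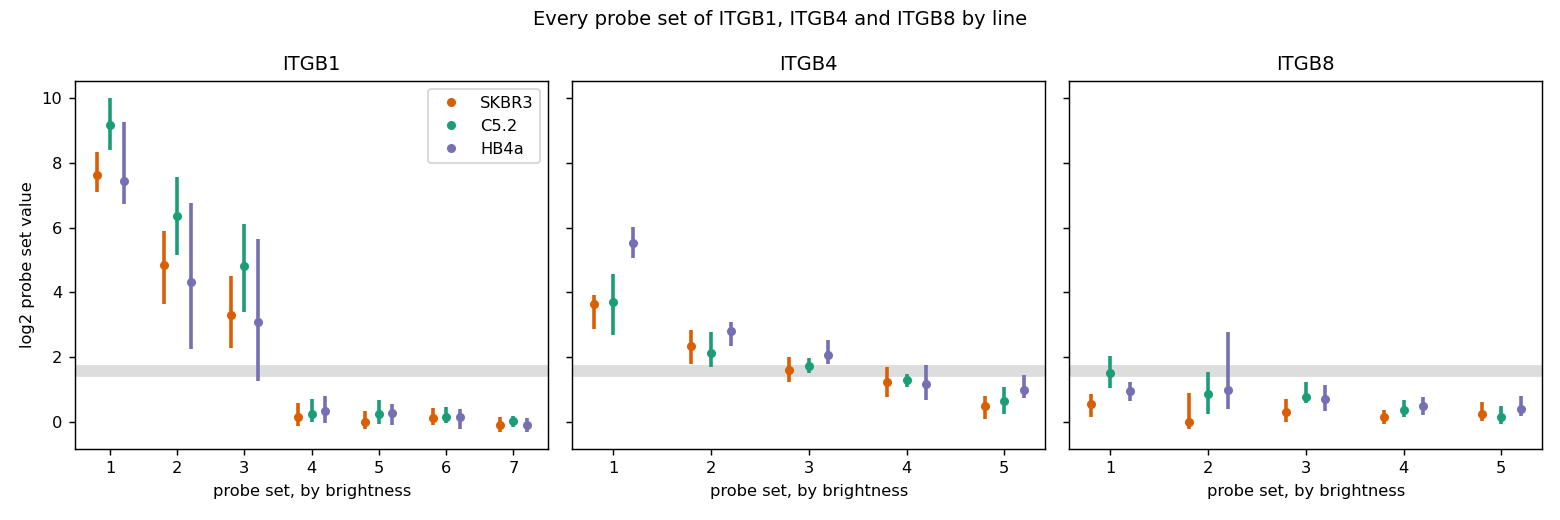
Median and range over 20 arrays per line (y axis, log2 value) for each probe set of ITGB1, ITGB4 and ITGB8, ranked by brightness (x axis), with array medians in grey. The 3 brightest ITGB1 probe sets place C5.2 highest and the other 4 lie under the grey band.

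Against vehicle, no member above background differed by more than 0.97 log2 units. LAMB3 rose with both drugs in HB4a and in C5.2, the 2 calls among 27 tests of members in the 9 comparisons of a treatment with vehicle. These tests were not blocked on the experiment number, and the 2 calls fell where the numbers did not pair the arrays. With the block, members were also called for each single drug in HB4a and C5.2 and for both drugs in SKBR3. Larger shares of all genes were then called too, as given below. The comparisons of a line share their vehicle arrays.

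In HB4a, LAMB3 read 8.80, 8.67, 9.17, 8.39 and 8.57 with both drugs, 8.34, 8.98, 8.46, 8.34 and 8.49 with doxorubicin, 8.41, 8.94, 8.40, 8.17 and 8.50 with rapamycin, and 8.09, 8.51, 7.97, 8.07 and 8.03 in vehicle. Every treated array lay above the vehicle array of the same number, although the groups overlapped through vehicle array 2. For both drugs the numbers did not pair the arrays. With both drugs LAMB3 rose by 0.59 ± 0.16 (adjusted p = 0.0119), 1 of 5 members tested, where 17.4% of 6167 genes were called and 10.9% rose. The call was lost with all 60 arrays in the fit (adjusted p = 0.107). ITGA2 read 6.62, 4.49, 5.11, 4.67 and 4.66 with both drugs against 4.97, 4.39, 3.70, 3.37 and 4.26 in vehicle. Matched by number, which did not pair these arrays, it was higher on each array, by 0.09 to 1.66, but with overlap through array 1. Its difference of 0.97 ± 0.49 was not called (adjusted p = 0.191). ITGB1 (0.35 ± 0.35, adjusted p = 0.555), ITGB4 (0.19 ± 0.14, adjusted p = 0.425) and ITGA3 (0.03 ± 0.15, adjusted p = 0.921) were not called either.
Doxorubicin alone gave LAMB3 0.39 ± 0.16 (adjusted p = 0.122), with 0 of 5 members called by limma, 1 at an unadjusted p under 0.05 and 11.4% of genes called. Blocked on the experiment number, the LAMB3 value was called (adjusted p = 0.0156, higher in 5 of 5 experiments), 1 of 5 members where 32.7% of genes were called.

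Rapamycin in HB4a left LAMB3, ITGB4, ITGA2 and ITGB1 above vehicle without a call when experiments were not paired. ITGB4 read 5.17, 5.70, 5.76, 5.91 and 6.01 with rapamycin and 5.07, 5.47, 5.33, 5.41 and 5.39 in vehicle, and ITGA2 6.72, 5.15, 4.06, 3.94 and 4.42 with rapamycin and 4.97, 4.39, 3.70, 3.37 and 4.26 in vehicle. ITGB1 read 9.28, 7.36, 7.87, 7.63 and 7.64 with rapamycin and 7.90, 6.75, 7.38, 6.79 and 7.74 in vehicle. Experiment 1 was the highest of its group for ITGA2 and ITGB1 under both conditions, and the groups overlapped for all 3 genes.
The differences were 0.37 ± 0.14 for ITGB4 (adjusted p = 0.193), 0.72 ± 0.49 for ITGA2 (adjusted p = 0.534), 0.64 ± 0.35 for ITGB1 (adjusted p = 0.408) and 0.35 ± 0.16 for LAMB3 (adjusted p = 0.289). In limma 0 of 5 members were called, 2 had an unadjusted p under 0.05, and 3.18% of genes were called. With the experiment as a block 4 of 5 were called, against 16.3% of genes: ITGB4 (adjusted p = 0.00507, higher in 5 of 5 experiments), ITGB1 (0.0183, 4 of 5), ITGA2 (0.0321, 5 of 5) and LAMB3 (0.0473, 5 of 5). ITGA3 was -0.06 ± 0.15 (adjusted p = 0.903). The dimmer ITGA2 probe set differed by -0.04 and was not tested. The next brightest ITGB4 probe set, also untested, averaged 2.70 both with rapamycin and in vehicle. HB4a rapamycin array 1 was also the array farthest from its group's median profile over all genes, by 0.669 log2 units (root mean square), and without it the ITGB1 difference was 0.31 (adjusted p = 0.700) and ITGB4 was called at 0.51 (adjusted p = 0.0229).

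**Figure D4:**
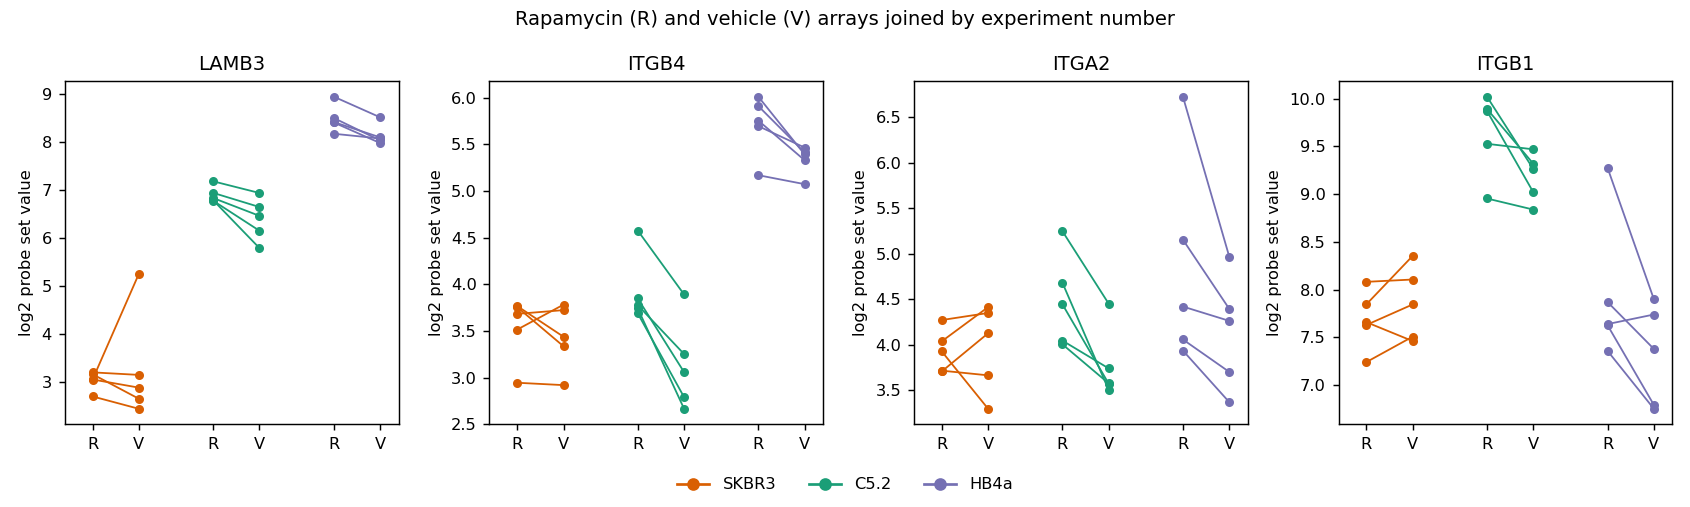
Log2 values (y axis) of rapamycin and vehicle arrays of 4 genes, joined within an experiment and coloured by line (x axis, R rapamycin, V vehicle). In C5.2 all 5 lines of each gene lie higher at rapamycin, in HB4a all but 1 ITGB1 line do, and in SKBR3 the lines run both ways; the steep SKBR3 LAMB3 line ends on vehicle array 3.

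In C5.2, LAMB3 read 6.95, 6.90, 6.81, 6.94 and 7.25 with both drugs, 6.37, 6.45, 6.94, 6.68 and 7.22 with doxorubicin, 6.78, 6.77, 6.83, 6.94 and 7.18 with rapamycin, and 5.78, 6.15, 6.46, 6.64 and 6.93 in vehicle. Vehicle spanned more than 1 log2 unit and overlapped each treated group at its upper end. With both drugs LAMB3 rose by 0.58 ± 0.18 (adjusted p = 0.0282, 1.49-fold), 1 of 3 members tested, where 21% of 6292 genes were called and 6.42% rose. This call rested on single arrays: without vehicle 1, vehicle 2 or the array of both drugs numbered 6, it was lost, and it was lost in 6 of 11 other settings (adjusted p from 0.0510 to 0.127), among them array weights, where the difference was 0.34. Rapamycin gave LAMB3 0.51 ± 0.18 (adjusted p = 0.0599) and doxorubicin 0.34 ± 0.18 (adjusted p = 0.432), and with the experiment as a block both were called (adjusted p = 0.00111 and 0.0371, each higher in 5 of 5 experiments).

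ITGB1 in C5.2 read 8.94, 8.66, 9.66, 9.66 and 9.66 with both drugs, 8.59, 8.41, 9.12, 9.01 and 8.89 with doxorubicin, 9.53, 8.95, 10.02, 9.87 and 9.89 with rapamycin, and 9.47, 8.84, 9.26, 9.02 and 9.32 in vehicle. All 5 experiments ran down with doxorubicin and up with rapamycin, within overlapping groups. Against vehicle the difference was -0.38 ± 0.22 with doxorubicin (adjusted p = 0.485, with the block 0.0334) and 0.47 ± 0.22 with rapamycin (adjusted p = 0.142, with the block 0.00356). Both drugs minus vehicle was 0.13 ± 0.22 (adjusted p = 0.736). Both drugs minus doxorubicin was 0.51 ± 0.22 (adjusted p = 0.124, with the block 0.00238). Both minus rapamycin was -0.34 ± 0.22 (adjusted p = 0.487, with the block 0.0461).
Of 3 members tested, 0 were called without the block by limma with doxorubicin (0 at an unadjusted p under 0.05, 3.26% of genes called) and 0 with rapamycin (2 at an unadjusted p under 0.05, 17.4% of genes called). With the block these counts were 2 of 3, where 17.4% of genes were called, and 2 of 3, where 44.2% were called. The next brightest pair of ITGB1 probe sets differed by 0.84 ± 0.32 (adjusted p = 0.0799) and 0.87 ± 0.35 (adjusted p = 0.0989) with rapamycin, where 16.3% of probe sets tested were called.

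ITGB4 and ITGA2 lay under the filter in C5.2 and were not tested there. ITGB4 read 3.74, 3.88, 3.66, 3.44 and 4.30 with both drugs, 3.14, 3.45, 3.79, 3.26 and 4.06 with doxorubicin, 3.74, 3.85, 3.69, 3.78 and 4.58 with rapamycin, and 2.67, 3.06, 2.79, 3.25 and 3.89 in vehicle. Vehicle arrays were low apart from array 6, which was the highest of every group. Rapamycin minus vehicle was 0.80, with adjusted p = 0.0485 with no filter, where 4.31% of genes were called, and both drugs minus vehicle was 0.67 (adjusted p = 0.0828 with no filter). The next brightest ITGB4 probe set averaged 2.30 with rapamycin, 2.26 with both drugs and 2.13 in vehicle. ITGA2 differed from vehicle by 0.85 with both drugs and 0.72 with rapamycin (adjusted p = 0.0608 and 0.157 with no filter). ITGA3 was between -0.10 and 0.11 in the 3 comparisons, none of them called.

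In SKBR3 ITGB1 was the 1 member tested. It read 7.33, 7.43, 7.49, 8.11 and 7.11 with both drugs, and 8.35, 7.46, 7.84, 8.11 and 7.51 in vehicle. Experiments 2 and 4 were nearly level and the others were lower with both drugs, in overlapping groups. The difference was -0.36 ± 0.20 with both drugs (adjusted p = 0.204, 22% of 5977 genes called; with the block 0.0158, lower in 4 of 5 experiments, 50.5% of genes called), -0.16 ± 0.20 with rapamycin (adjusted p = 0.641, 18.3% called) and -0.03 ± 0.20 with doxorubicin (adjusted p = 0.9997, 0.837% called). Both drugs minus doxorubicin was -0.32 ± 0.20 (adjusted p = 0.262, 22% called; with the block 0.0282, 49.6% called). The tests called 0 members without the block, and 0 had an unadjusted p under 0.05. LAMB3 stayed between 2.44 and 3.83 on the SKBR3 arrays other than vehicle array 3 and ITGA6 at background on all 20. Under the filter, SKBR3 differences from vehicle ran from 0.07 to 0.25 for ITGB4, -0.27 to 0.04 for ITGA2 and -0.01 to 0.14 for ITGA3.

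Both drugs set against a single drug called 0 members in the 3 lines without the block. LAMB3 was 0.20 ± 0.16 above doxorubicin (adjusted p = 0.594) and 0.24 ± 0.16 above rapamycin (adjusted p = 0.394) in HB4a, and 0.24 ± 0.18 (adjusted p = 0.432) and 0.07 ± 0.18 (adjusted p = 0.900) in C5.2. The unadjusted count was 1, ITGB1 for both minus doxorubicin in C5.2. The share of all genes called for both drugs minus doxorubicin was 22% in SKBR3, 13.5% in C5.2 (38% with the block) and 2.58% in HB4a, and for both minus rapamycin 0.552% in SKBR3, 6.39% in C5.2 (22.2% with the block) and 8.84% in HB4a. With the block 1 of 3 C5.2 members, ITGB1, was called in each.

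The difference between lines in each response was tested directly. Over 9 response comparisons 39 tests of members gave 0 calls by limma and 2 at an unadjusted p under 0.05. The ITGB1 response to rapamycin differed by -0.81 ± 0.43 for SKBR3 minus HB4a (adjusted p = 0.345, 5.03% of genes called) and by -0.64 ± 0.31 for SKBR3 minus C5.2 (adjusted p = 0.225, 6.23% called). With the experiment as a block within each line, both were called (adjusted p = 0.00980 and 0.00759), where 22.5% and 32.4% of genes were called. The SKBR3 minus HB4a difference includes HB4a rapamycin array 1, where ITGB1 read 9.28. That difference ran from -0.96 to -0.24 over 11 other settings and 40 fits with 1 array left out, and only the block called it. ITGA2 responded to both drugs by -1.23 ± 0.57 in SKBR3 relative to HB4a (adjusted p = 0.178, 9.82% called). The LAMB3 responses of C5.2 and HB4a differed by -0.05 ± 0.25 for doxorubicin, 0.16 ± 0.25 for rapamycin and -0.01 ± 0.25 for both drugs (adjusted p = 0.9999, 0.999 and 0.998). The share of genes called was 3.87% for doxorubicin in SKBR3 minus HB4a, 1.47% for doxorubicin and 12.3% for both drugs in SKBR3 minus C5.2, and 0.101% for doxorubicin, 0% for rapamycin and 0.373% for both drugs in C5.2 minus HB4a.

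**Figure D5:**
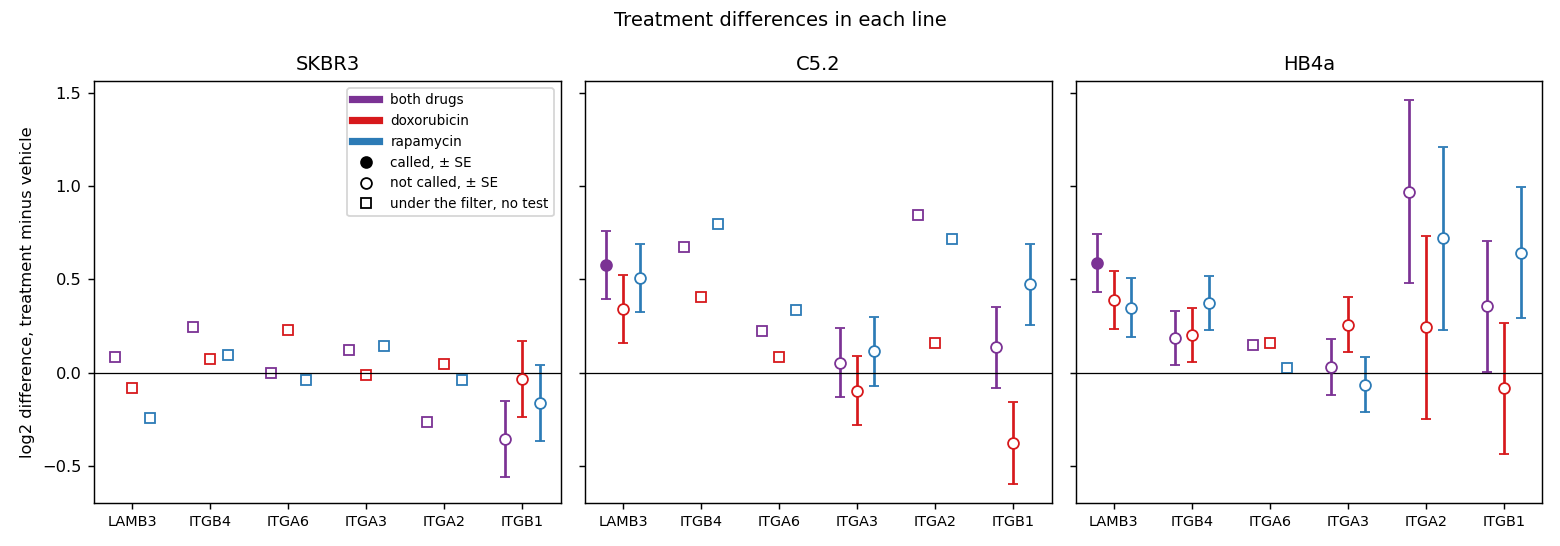
Log2 difference from vehicle (y axis) for 6 genes (x axis) in each line (panels), coloured by treatment, with the SE where tested, filled where called and squares for genes under the filter. The filled points, from the fit not blocked on the experiment number, are LAMB3 with both drugs in C5.2 and in HB4a.

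Other genes of the same structures were counted in lists. Their counts stand beside shares of all tested genes of 49.2% called between C5.2 and HB4a (29.3% higher, 19.9% lower), 77.3% between SKBR3 and HB4a (37.6% higher, 39.7% lower) and 78.8% between SKBR3 and C5.2 (42.6% lower). With so few genes in each list the counts set none of them apart from other genes. Of the hemidesmosome partners 3 of 6 were tested in each line comparison; SKBR3 minus HB4a was -2.02 ± 0.18 for the plakin PLEC (adjusted p = 1.45e-12), while the tetraspanin CD151 was 0.79 ± 0.16 higher (adjusted p = 3.51e-05) and ERBIN, which binds ITGB4 and ERBB2, 0.90 ± 0.39 higher (adjusted p = 0.0328). None of the 3 was called between C5.2 and HB4a, and PLEC was lower (-1.73) and CD151 higher (0.95) in SKBR3 than in C5.2.
Other laminin chains were called lower in 1 of 4 between C5.2 and HB4a (LAMA5, -0.59 ± 0.14), in 2 of 3 between SKBR3 and HB4a and in 2 of 4 between SKBR3 and C5.2, with none higher. LAMC1, the gamma chain of most other laminins, was at background in SKBR3 and at least 6.10 lower than in HB4a and at least 6.07 lower than in C5.2. LAMB1 fell with doxorubicin in HB4a (-0.52 ± 0.14, adjusted p = 0.0177).

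Of the 8 scaffold genes of the basement membrane tested between SKBR3 and HB4a 1 was higher and 7 were lower, and of the 9 tested between SKBR3 and C5.2 1 was higher and 8 were lower. In SKBR3 alone 1 of them passed the filter, so most reached these tests through the line in which they were high. Their number and their medians are therefore no evidence on the list. In each comparison 4 were at background in SKBR3, and with these at their bound the medians were -4.13 and -3.76. Nidogen NID1 was at least 5.82 lower than in HB4a and at least 6.84 lower than in C5.2, the collagen COL4A1 at least 4.98 lower than in HB4a, and the proteoglycan AGRN 0.95 ± 0.17 and 1.24 ± 0.18 higher. In C5.2 4 of 10 were higher than in HB4a, among them COL18A1 (2.38 ± 0.17) and COL4A6 (1.64 ± 0.14), and HSPG2 was lower (-1.03 ± 0.14). COL7A1, the anchoring fibril collagen that laminin-332 holds, rose in C5.2 with doxorubicin (1.14 ± 0.26, adjusted p = 0.0175) and with both drugs (1.09 ± 0.26, adjusted p = 0.00556). It was the 1 of 9 tested scaffold genes that was higher in each. Of all genes 3.26% were called with doxorubicin, and 21% with both drugs (6.42% higher). COL4A6 fell in C5.2 with both drugs (-0.40 ± 0.13, adjusted p = 0.0368).

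Other integrin subunits had 1 higher and 2 lower of 4 between C5.2 and HB4a, 1 and 3 of 4 between SKBR3 and HB4a, and 1 and 2 of 4 between SKBR3 and C5.2. ITGA5, the fibronectin receptor chain, was lower in SKBR3 than in HB4a (-4.05 ± 0.17) and fell in HB4a with both drugs (-0.66 ± 0.15, adjusted p = 0.00431). ITGAE was 0.49 ± 0.08 higher in C5.2 than in HB4a and lower in SKBR3 than in C5.2 (-1.78 ± 0.08), and fell with rapamycin in SKBR3 (-0.81 ± 0.11), C5.2 (-0.24 ± 0.06) and HB4a (-0.41 ± 0.10). ITGB5 rose with rapamycin in SKBR3 (0.38 ± 0.10, adjusted p = 0.0120). ITGAV, the partner of ITGB6 and ITGB8, was 1.01 ± 0.38 higher in SKBR3 than in HB4a (adjusted p = 0.0150).

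Adaptors and kinases inside the cell had 5 higher and 3 lower of 12 between C5.2 and HB4a, 2 and 8 of 12 between SKBR3 and HB4a, and 2 and 8 of 12 between SKBR3 and C5.2. The tensin TNS4 was lower in C5.2 than in HB4a (-3.63 ± 0.19), and the actin crosslinker ACTN1 lower in SKBR3 than in HB4a (-2.73 ± 0.13). Parvin PARVA rose in HB4a with doxorubicin (0.48 ± 0.10), rapamycin (0.42 ± 0.10) and both drugs (0.66 ± 0.10), while the tensin TNS3 fell there with both drugs (-0.78 ± 0.12) and in C5.2 (-0.55 ± 0.11) and rose in SKBR3 (0.72 ± 0.16).
Of the latent TGF-beta partners 4 of 4 were higher in SKBR3 than in HB4a, among them TGFB3 (3.82 ± 0.12) and LTBP1 (2.30 ± 0.18), and 0 of 4 were called between C5.2 and HB4a. Between SKBR3 and C5.2 2 of 5 were higher and 1 lower. In C5.2 TGFB2 rose with rapamycin (1.52 ± 0.33, adjusted p = 0.00424).

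Over the 12 group means, which share lines and vehicle arrays, ITGA3 and ITGA6 ran together (Pearson r = 0.99), ITGA6 and LAMB3 (0.95) and ITGA3 and LAMB3 (0.92) less so, and ITGB1 and ITGB4 gave -0.49. These describe mainly the 3 lines. The genes most like each member other than ITGB8 were COL4A2 and COL4A1 for ITGA6 (r = 0.998 each), TIMP1 and TOR4A for ITGA3 (0.997 each), SERPING1 and SOCS3 for LAMB3 (0.997 each), CUL4B and C1GALT1C1 for ITGB1 (0.992 and 0.987), PNPLA2 and PPBP for ITGB4 (0.984 and 0.981), and CRIPT and CLDND1 for ITGA2 (0.947 and 0.927).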

How the data were processed

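The authors deposited log2 probe set values, which per the submitters' processing notes were made with RMA; no version is named, and base 2 was inferred from their range (-0.60 to 13.08). No source used here says if the arrays shared a single RMA run. Doses were read as nM from the source names, and the group labelled DRC as vehicle from its source name. Symbols came from the platform annotation, updated by gene identifier; of 54675 probe sets 41091 carried 1 symbol and 1801 several. Each gene was read from its brightest probe set over all arrays.

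The test was limma (version 3.58.1, R 4.3.3, data read with data.table, version 1.17.8), as lmFit and eBayes with trend on 20 arrays within a line and 40 for 2 lines, Benjamini-Hochberg over all genes above log2 5 on at least 5 arrays. Tables came from pandas 2.3.3 and numpy 2.4.6 under Python 3.11.15, and figures from matplotlib 3.10.9. In all 27 comparisons were made: lines in vehicle, treatments against vehicle, the drug pair against its single drugs, and 9 contrasts of responses between lines. The number of arrays, 5 per group, limits the precision. Other settings tried were quantile normalization or centring of arrays, weights per array, eBayes without trend, averaged probe sets, other filters (none, log2 7 or log2 3), larger or smaller fits (all 60 arrays, or the compared groups alone) and left-out arrays. The scripts were tested on simulated data.

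Experiment numbers recur in every group. They were taken as pairing the arrays where every residual correlation between equal numbers passed 0.1. This held for all SKBR3 comparisons of treatments, for HB4a and C5.2 treatments with a single drug, for both drugs against each drug in C5.2, and for C5.2 against HB4a in vehicle (lowest 0.163). It failed for HB4a with both drugs, C5.2 with both drugs against vehicle and SKBR3 against the other lines. In HB4a with both drugs against vehicle, numbers 1, 4 and 6 gave 0.890, 0.532 and 0.539. Numbers 2 and 3 gave -0.211 and -0.536. Where the numbers paired, values blocked on them are printed if they alter a call.

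All members are named; of the other lists, called genes with the largest change, at most 2 per direction for a line comparison and 1 for a treatment, and for each member but ITGB8, which lay at background, the 2 genes of highest Pearson r over group means. Members and lists were chosen with earlier results of these data known.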

Additional observations from a re-analysis of the deposited data

Results flagged for a closer look

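Groups of 5 arrays were examined for a single array whose gap to its nearest neighbour exceeded Dixon's critical value as a share of the group's range. Of 84 groups of a gene 11 held such an array, and chance gives about 1 in 20. LAMB3 on SKBR3 vehicle array 3 read 5.25, where the others lay between 2.44 and 3.14; that array also carried the high FN1 described above. LAMB3 read 8.51 on HB4a vehicle array 2 (others 7.97 to 8.09) and 8.98 on HB4a doxorubicin array 2 (others 8.34 to 8.49), so the same experiment stood high in both groups.

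ITGB1 read 9.28 on HB4a rapamycin array 1 (others 7.36 to 7.87), and ITGA6 4.49 on HB4a both array 1 (others 3.28 to 3.62). In C5.2, ITGB4 read 4.58 on rapamycin array 6 (others 3.69 to 3.85) and ITGA2 4.45 on vehicle array 6 (others 3.50 to 3.74). ITGA6 read 3.72 on C5.2 vehicle array 1 (others 3.30 to 3.41) and 2.86 on C5.2 doxorubicin array 2 (others 3.55 to 3.79). On SKBR3 doxorubicin array 1, ITGA3 read 2.72 (others 3.06 to 3.17) and ITGA6, at background, 0.16 (others 0.35 to 0.40).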

How the results depend on the processing

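No result for a member reversed its direction among called values. Of 4151 values recomputed for members, 47 gained a call and 10 lost one, among members tested in the main fit. The other 4094 counted as unchanged. For members under the filter in the main fit this meant a shift smaller than the spread within groups, whatever the adjusted p. Some of these were called under other settings, as the counts below show. Changed counts of members called are given by setting, with the count as reported in the results. C5.2 against HB4a in vehicle (3 called) gave 1 with the mean of all probe sets, under which fewer members passed the filter, 2 with a filter at log2 7, 4 with no filter, and 4 with array weights (ITGA3 added, adjusted p = 0.0201). SKBR3 against HB4a and against C5.2 (3 each) gave 5 each with no filter, 1 each with a filter at log2 7, 2 each with the mean of all probe sets and with only the groups compared, and 4 each with a filter at log2 3. SKBR3 against HB4a also gave 4 with array centring, without the arrays that stood apart and with the replicate block.

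With array weights, HB4a doxorubicin and HB4a rapamycin gave 2 each in place of 0, and HB4a both against rapamycin, C5.2 rapamycin, C5.2 both against doxorubicin, SKBR3 both against vehicle, and the both-drug responses of SKBR3 against HB4a and C5.2 gave 1 in place of 0. C5.2 rapamycin gave 1 also with no filter, a filter at log2 3 (chosen after seeing the data), the mean of all probe sets, quantile normalization, all 60 arrays, and without the arrays that stood apart. Those arrays were SKBR3 and HB4a number 1, C5.2 number 2 and HB4a rapamycin 4, not SKBR3 vehicle array 3, and leaving them out also gave 1 for HB4a rapamycin and for C5.2 both against doxorubicin. HB4a both against vehicle (1) gave 0 with all 60 arrays. C5.2 both against vehicle (1) gave 0 with no filter, a filter at log2 7, array centring, only the groups compared, and without the arrays that stood apart, and 2 with a filter at log2 3. The both-drug response of SKBR3 against C5.2 gave 1 with a filter at log2 3. The cause of these changes was not tested.

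With the replicate block, the counts were 1 for HB4a doxorubicin, 4 for HB4a rapamycin, 2 for HB4a both, 1 for HB4a both against doxorubicin, 2 for C5.2 doxorubicin, 2 for C5.2 rapamycin, 1 each for C5.2 both against doxorubicin and against rapamycin, and 1 each for SKBR3 both against vehicle and against doxorubicin. Among responses the block gave 1 for both drugs in C5.2 against HB4a (ITGB4, adjusted p = 0.0368), 1 for rapamycin in SKBR3 against HB4a and against C5.2, 2 for both drugs in SKBR3 against HB4a (ITGA2, adjusted p = 0.00117, and ITGB1, 0.0157) and 1 for both drugs in SKBR3 against C5.2 (ITGB1, 0.0287). Where the numbers did not pair the arrays, in HB4a with both drugs, the block also called ITGA2 against vehicle (adjusted p = 0.00192) and against doxorubicin (0.0310), and for SKBR3 against HB4a in vehicle ITGB1 (0.0270).

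Leaving out 1 array gave 3 to 4 for SKBR3 against HB4a (4 without HB4a vehicle 1, ITGB1 adjusted p = 0.0474), and counts from 0 to 1 for HB4a rapamycin (1 without rapamycin 1), for C5.2 rapamycin (1 without vehicle 6, doxorubicin 6 or rapamycin 2), for C5.2 both (0 without vehicle 1, vehicle 2 or both 6) and for C5.2 both against doxorubicin (1 without both 2). Limits lie in 5 arrays per group, in the dim probe sets of ITGA6, ITGB8, ITGA2 and ITGB4 in some lines, and in the use of 1 probe set per gene.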
